A study of Mus musculus with 9 samples.

Results

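Hox genes record where in the body a fibroblast came from. These genes and genes of other patterning families were followed while mouse embryonic fibroblasts were being turned into induced pluripotent cells. They comprise every gene of the deposited table named as a Hox gene of clusters a to d, a numbered Tbx gene, Meis1 to Meis3, a Pbx gene, a gene of the Six2 family, Msx1 or Msx2. That gave 53 of 12550 genes. The choice rests on gene names, but it was made with earlier results of these data known. GENCODE M21, the mouse annotation used for coordinates, holds 67 protein-coding genes with such names. The other 14 (Hoxb1, Hoxb13, Hoxc11, Hoxc12, Hoxc13, Hoxd1, Hoxd4, Six3, Six6, Tbx6, Tbx10, Tbx19, Tbx20 and Tbx22) were not analysed here. The 53 are 32 Hox, 8 Tbx, 3 Meis, 4 Pbx and 2 Msx genes and 4 genes of the Six2 family. Tbx genes encode T-box factors and not homeodomain proteins, and the family is included for its part in limb and body patterning. Not every gene so named marks position, Tbx21 being a T-helper regulator.

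All libraries came from embryonic fibroblasts of the C57Bl/6cJ strain, grown in embryonic stem cell medium with LIF after transfection of plasmids for Oct4, Sox2, Klf4 and c-Myc. A short hairpin RNA, delivered in a pretroSuper construct, was directed against Hnrnpk (an RNA-binding protein), against lincRNA-p21 (a p53-induced non-coding RNA) or against luciferase, which mouse cells lack, as the control. Each hairpin was sampled on days 6, 9 and 12, giving 9 libraries, 1 per hairpin and day, and each library is described as merged replicates. The earliest day analysed here is day 6. The labels call the cells partially reprogrammed. The libraries are of bulk RNA, so fewer cells expressing a gene and less RNA per cell cannot be told apart.

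Hox genes encode homeodomain transcription factors and lie in 4 clusters, in which paralog numbers run from the gene used nearest the head to the gene used nearest the tail or the limb tip. Fibroblasts keep the Hox combination of their site of origin in culture. Pbx and Meis proteins are homeodomain partners that bind DNA beside Hox proteins, Six2 and related proteins work with Eya and Dach partners in muscle, kidney and sense organ precursors, and Msx proteins are repressors of differentiation in limb and face mesenchyme. Pluripotent cells carry most Hox clusters silent under Polycomb repression.

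The members lie on the mm10 (GRCm38) genome as follows, by GENCODE M21. The HoxA genes in the table, 11 in number, lie on chromosome 6. The 8 HoxB genes span chr11:96271457-96354012, the 6 HoxC genes chr15:102966796-103036852, and the 7 HoxD genes chr2:74668310-74748442. Tbx2 and Tbx4 lie 44.5 kb apart and Tbx3 and Tbx5 148 kb apart. Of the 53 members, 34 share no exonic base with another annotated gene. For 10 members some exonic bases belong to another gene on the same strand, and for 12 to a gene on the opposite strand. By share of exonic bases, the most affected are 53.1% of Hoxd3 with the read-through model Gm28230, 52.9% of Hoxb3 with the antisense Hoxb3os, 35.0% of Hoxa11 with Hoxa11os and 27.3% of Hoxb2 with Hoxb3os. No label or note says whether counting used strand, so reads of those pairs cannot be told apart.

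Promoter sequences of 4 members are shown as examples, and not all of them are the extremes of the results. Hoxd8 and Hoxd13 stand near the ends of the HoxD order described further on, Hoxd12 differed most between the hairpins, and Hoxb8 stands for the strongly lowered HoxB genes. The sequences are RefSeq's, on GRCm38.p6, 250 bases before to 50 bases after the start of transcription, with each CpG in capitals.
Hoxd8, chr2:74704365-74704664, + strand: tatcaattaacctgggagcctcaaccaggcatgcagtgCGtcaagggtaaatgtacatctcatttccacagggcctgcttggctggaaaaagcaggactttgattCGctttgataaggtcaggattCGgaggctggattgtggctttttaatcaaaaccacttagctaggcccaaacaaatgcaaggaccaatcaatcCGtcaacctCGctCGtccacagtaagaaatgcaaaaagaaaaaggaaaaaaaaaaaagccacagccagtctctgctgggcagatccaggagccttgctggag
Hoxd12, chr2:74674763-74675062, + strand: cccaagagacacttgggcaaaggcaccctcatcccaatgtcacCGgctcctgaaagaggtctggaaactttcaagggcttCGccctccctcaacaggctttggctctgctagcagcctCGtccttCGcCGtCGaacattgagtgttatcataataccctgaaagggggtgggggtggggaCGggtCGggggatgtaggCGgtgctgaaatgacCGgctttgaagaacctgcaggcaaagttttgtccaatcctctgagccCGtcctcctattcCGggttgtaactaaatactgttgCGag
Hoxd13, chr2:74667975-74668274, + strand: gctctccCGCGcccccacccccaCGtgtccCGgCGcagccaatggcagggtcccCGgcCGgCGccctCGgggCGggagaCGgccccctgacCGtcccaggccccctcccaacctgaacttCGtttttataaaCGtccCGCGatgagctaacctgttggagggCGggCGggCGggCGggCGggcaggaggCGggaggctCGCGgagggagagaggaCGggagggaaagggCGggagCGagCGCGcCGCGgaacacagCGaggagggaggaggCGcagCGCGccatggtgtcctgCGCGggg
Hoxb8, chr11:96281655-96281954, + strand: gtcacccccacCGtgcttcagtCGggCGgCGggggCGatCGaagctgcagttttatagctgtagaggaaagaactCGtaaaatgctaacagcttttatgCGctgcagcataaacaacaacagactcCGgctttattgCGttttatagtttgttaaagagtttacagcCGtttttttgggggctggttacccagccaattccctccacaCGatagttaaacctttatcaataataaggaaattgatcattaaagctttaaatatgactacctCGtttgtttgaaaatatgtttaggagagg
The Hoxd13 window holds 37 CpG, against 13 in Hoxd12, 6 in Hoxd8 and 13 in Hoxb8. The other HoxD windows hold 20 in Hoxd3, 20 in Hoxd9, 22 in Hoxd10 and 4 in Hoxd11, so the CpG number does not rise steadily with paralog number. The RefSeq start of Hoxd13 lies 85 bases from the GENCODE start. Some windows lie much farther off, by 15461 bases in Hoxc4, 10343 in Tbx4, 3719 in Hoxa9 and 3281 in Hoxa7. Which start these cells used was not tested. Windows of this kind were found for 33 members, 19 of them Hox genes, and the median was 16 CpG in the members and 14 in the Hox genes, against 7 over all 32851 mouse promoters. Letters known as the TATA box, TATAAA, occurred on either strand in 12.1% of the members' windows and in 13.6% of all windows. Hoxb8 and Hoxd13 held 2 matches each. Those of Hoxd13 overlap in the same stretch, tttataaa, read on both strands. Those of Hoxb8 both lie on the strand opposite the gene. TGATTNAT, a composite that Pbx and Hox proteins bind, occurred in 3.03% of the members' windows and 3.22% of all, and TGACAG, bound by Meis proteins, in 18.2% of the members' windows and 19.2% of all. No searched motif contains another, and both strands were read. The members' shares lay near those of all promoters, which belong to 27025 genes and were not limited to genes of the deposited table. Across the 33 members the number of CpG and the later change had a Spearman rho of -0.17, given as a description only, since the clustered genes share neighbourhood and base composition.

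Values are the authors' normalized signal, whose depth is unknown. Differences are on the scale of log2(signal + 10), which understates changes of low genes, and were tested with limma across 12541 genes in a model with a term for hairpin and a term for day. A gene is called at a Benjamini-Hochberg adjusted p of at most 0.05. With 1 library per hairpin and day, the error is the spread of a day difference over the 3 hairpins, or of a hairpin difference over the 3 days, and not the spread between replicates. All 53 members passed the filter on low values, a mean of at least 20, and their signal lay between 3 and 2485.5.

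Nearly all members were lower at the end of the time course. Day 12 set against day 6 gave 50 members lower, 2 higher and 1 not called, where 27.0% of all genes tested were lower and 22.3% higher. All 32 Hox genes fell, and so did all 3 Meis and 2 Msx genes, 7 of 8 Tbx genes, Pbx3, Six2, Six4 and Six5. Of the members, 33 fell at least 2-fold, against 6.71% of all genes. The median difference was -1.21 over the members and -0.04 over all genes tested. In each of the 3 hairpin arms 51 members were lower on day 12 than on day 6, where 34.8% of all genes were. With each library left out in turn, 48 of the 50 falls kept their call, the others being those of Tbx18 and Pbx3.

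By the median over all members, most of the difference was present by day 9. Between days 9 and 6, 45 members were called, all of them lower, where 39.9% of all genes were called in either direction (2632 lower and 2376 higher). The members had a median of -0.98 against -0.01 over all genes. The 8 members not called at that step were Hoxa11, Hoxd9, Hoxd12, Tbx2, Tbx15, Tbx18, Pbx2 and Pbx4. Between days 12 and 9 limma called 0 members, and it called 0.654% of all genes in either direction. At an unadjusted p under 0.05 there were 17 members, where 14.1% of all genes were. The median there was -0.19 for the members and -0.03 for all genes. HoxD and Tbx genes were more evenly split. The HoxD median was -0.49 between days 9 and 6 and -0.40 between days 12 and 9. For Tbx genes it was -0.58 and then -0.48. Without the luciferase library of day 6, 6 members were called at that later step, all lower, where 3.36% of all genes were called in either direction. Without the Hnrnpk library of day 6 it was 1 member, lower, where 1.79% of all genes were called.

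**Figure D1:**
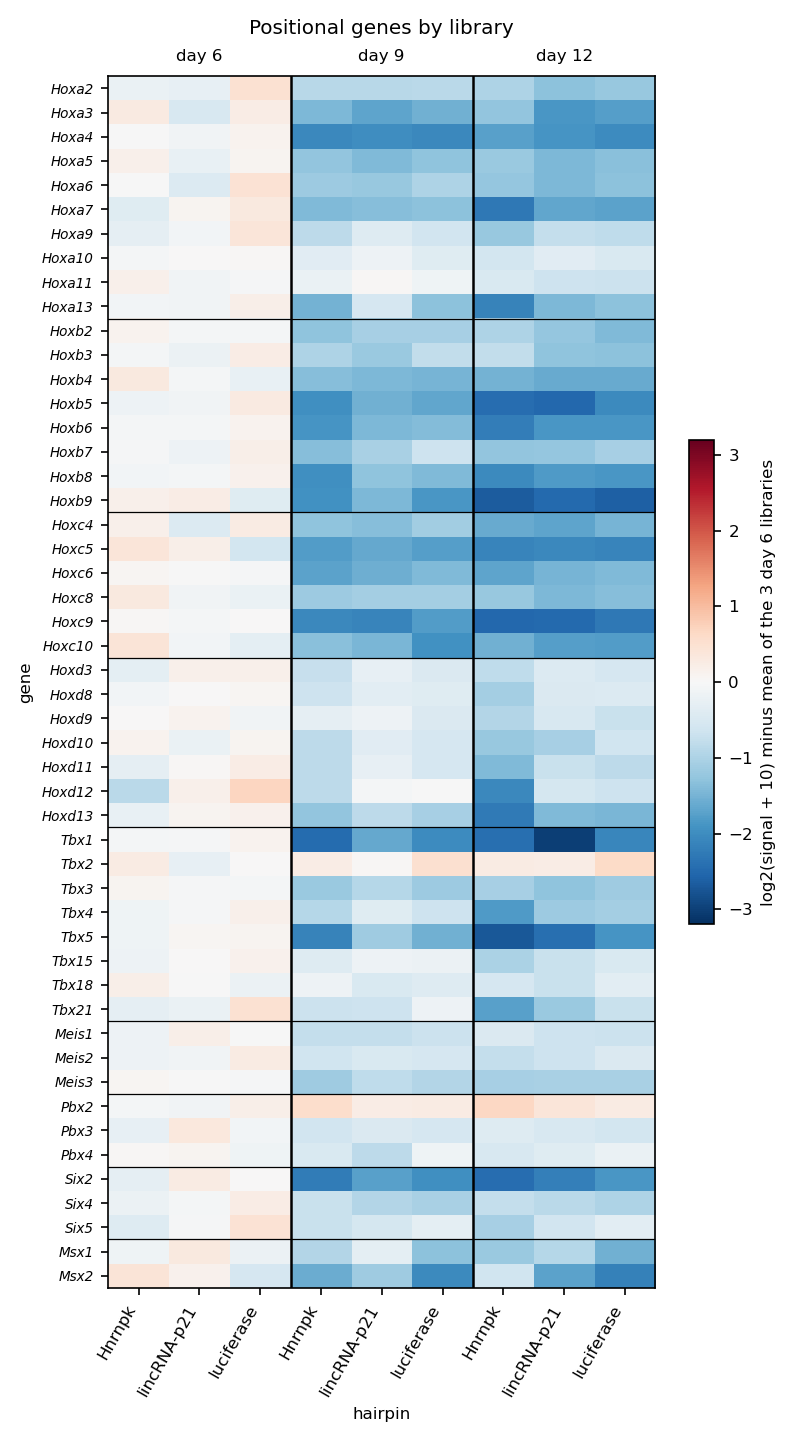
Each row is 1 of 50 of the 53 genes and each column 1 of the 9 libraries, grouped by day and then by hairpin. Colour gives log2(signal + 10) minus the gene's mean over the 3 day 6 libraries. Most rows turn blue by day 9 and stay blue on day 12, while Tbx2 and Pbx2 stay near white or pale red.

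As a share of the day 6 signal of the same arm, averaged over the 3 arms, the median member stood at 49.8% on day 9 and 41.4% on day 12. On day 12 the medians were 28.8% for HoxB, 30.4% for HoxC, 38.5% for HoxA and 49.8% for HoxD. They were 34.4% for Msx, 42.6% for Tbx and 64.6% for Meis genes. The lowest share was that of Six2 at 9.72% and the highest that of Pbx2 at 138%.

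In the HoxB cluster, which patterns the hindbrain and trunk, all 8 genes fell, by a median of 1.74 on the log2 scale. Hoxb9, the most tailward HoxB gene in the table, had a signal of 447.5, 97 and 54 on days 6, 9 and 12 in the Hnrnpk arm, 470, 139.5 and 62.5 in the lincRNA-p21 arm, and 300, 102 and 57 in the luciferase arm. All 3 day 12 values lay below every day 6 value, a difference of -2.59 (SE 0.17, limma adjusted p = 1.5e-05), and this was the lowest of the 53. Hoxb5, which specifies trunk and gut mesoderm, stood at 218, 55.5 and 37 in the Hnrnpk arm, 223.5, 78 and 34.5 in the lincRNA-p21 arm and 298.5, 70.5 and 52 in the luciferase arm (-2.33, SE 0.17). Hoxb6 stood at 363.5, 95 and 73.5 in the Hnrnpk arm, 366, 134 and 96.5 in the lincRNA-p21 arm and 413, 139 and 98 in the luciferase arm (-1.98, SE 0.13). For these genes, too, no day 12 value reached a day 6 value. Here and in the families below, such separation was not counted over all genes. The genes shown were picked mainly for their large differences. The other genes fell as well, with differences of -1.13 in Hoxb3, -1.19 in Hoxb7, -1.21 in Hoxb2, -1.58 in Hoxb4 and -1.90 in Hoxb8.

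The HoxC genes, active in the thoracic and lumbar trunk and the hindlimb, fell by a median of 1.65, and all 6 passed the test. Hoxc9, a thoracic gene, stood at 301.5, 62 and 43 on days 6, 9 and 12 in the Hnrnpk arm, 280.5, 60 and 44 in the lincRNA-p21 arm and 294.5, 77.5 and 52 in the luciferase arm. The arms were close to one another on each day, and the difference of day 12 from day 6 was -2.43 (SE 0.14, limma adjusted p = 1e-05). Hoxc5 stood at 337, 67.5 and 52 in the Hnrnpk arm, 295, 75.5 and 54 in the lincRNA-p21 arm and 168.5, 68.5 and 52 in the luciferase arm (-2.09, SE 0.21). Its arms differed on day 6 and nearly coincided on day 12. Hoxc10, of the lumbar trunk and hindlimb, stood at 452, 128 and 109 in the Hnrnpk arm, 314.5, 117 and 92 in the lincRNA-p21 arm and 270, 81 and 90 in the luciferase arm (-1.70, SE 0.15). Hoxc5 and Hoxc10 share 166 exonic bases on the same strand, 5.37% of Hoxc5 and 8.70% of Hoxc10. Hoxc4, Hoxc6 and Hoxc8 fell too, with differences of -1.60, -1.53 and -1.34.

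The HoxA genes, which act in the trunk, the limb and the female reproductive tract, fell by a median of 1.32. Hoxa7 had a signal of 633.5, 307.5 and 162.5 on days 6, 9 and 12 in the Hnrnpk arm, 885, 321 and 259 in the lincRNA-p21 arm and 1039.5, 328 and 249 in the luciferase arm (-1.88, SE 0.14). Hoxa4 stood at 125.5, 22.5 and 31 in the Hnrnpk arm, 117, 24.5 and 27 in the lincRNA-p21 arm and 139, 23 and 24 in the luciferase arm (-1.88, SE 0.19). Hoxa13, the gene of the hand and foot plate, stood at 121.5, 38.5 and 21.5 in the Hnrnpk arm, 119, 86 and 41.5 in the lincRNA-p21 arm and 150, 46 and 46 in the luciferase arm (-1.63, SE 0.25). In each of the 3 genes every day 12 value was below every day 6 value. The smallest HoxA falls were next to each other in the cluster: Hoxa10 fell by 0.48 (SE 0.10, limma adjusted p = 0.00369) and Hoxa11 by 0.61, and Hoxa10 kept 71.1% of its day 6 signal. Hoxa11 shares exonic bases with its antisense transcript, listed in the table as Hoxa11as, which itself fell by 0.73. Further falls were 0.93 in Hoxa9, 1.17 in Hoxa2, 1.32 in Hoxa6, 1.33 in Hoxa5 and 1.62 in Hoxa3.

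HoxD genes, of which the high-numbered members shape the limb from the upper arm to the digits, fell by a median of 0.98, the smallest median of the 4 clusters, and 2 of 7 fell at least 2-fold. Hoxd13, the digit gene, stood at 671.5, 323 and 158 on days 6, 9 and 12 in the Hnrnpk arm, 839, 439 and 290.5 in the lincRNA-p21 arm and 873, 375.5 and 281 in the luciferase arm (-1.71, SE 0.14). Hoxd12 stood at 83, 83.5 and 30 in the Hnrnpk arm, 179, 152 and 103 in the lincRNA-p21 arm and 260, 158 and 97 in the luciferase arm (-1.10, SE 0.19). Its day 12 and day 6 values overlapped across arms, with the Hnrnpk arm low from day 6, and day 12 was below day 6 within each arm. Hoxd11 stood at 354, 239 and 157.5 in the Hnrnpk arm, 443, 357 and 262 in the lincRNA-p21 arm and 515, 296 and 236 in the luciferase arm (-0.98, SE 0.13).

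Within HoxD the size of the fall followed the paralog number. The differences of day 12 from day 6 were -0.60 in Hoxd3, -0.65 in Hoxd8, -0.72 in Hoxd9, -0.98 in Hoxd10, -0.98 in Hoxd11, -1.10 in Hoxd12 and -1.71 in Hoxd13, all called. Spearman's rho between paralog number and difference was -1.0 over the 7 genes. Arm by arm it was -0.86 with the Hnrnpk hairpin, -0.86 with the lincRNA-p21 hairpin and -0.89 with the luciferase hairpin. Between days 12 and 9 rho was -0.93, and -0.75 to -0.89 in single arms. Between days 9 and 6 it was -0.29, and arm by arm it was -0.21 (Hnrnpk), 0.07 (lincRNA-p21) and -0.82 (luciferase). In the other clusters rho was 0.10 over 11 HoxA genes, -0.57 over 8 HoxB genes and -0.20 over 6 HoxC genes, and it was 0.04 over all 32. These are descriptions of genes that share libraries and chromosomal neighbourhood, with no test, and the differences between neighbours such as Hoxd3, Hoxd8 and Hoxd9 are smaller than their SE of 0.10 to 0.13. In HoxD the mean signal was not ordered with the change (rho -0.04), whereas over all 53 members higher genes had smaller falls (rho 0.51). A mean taken over all days is itself lowered by a fall, so part of the rho of 0.51 can be built in.

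**Figure D2:**
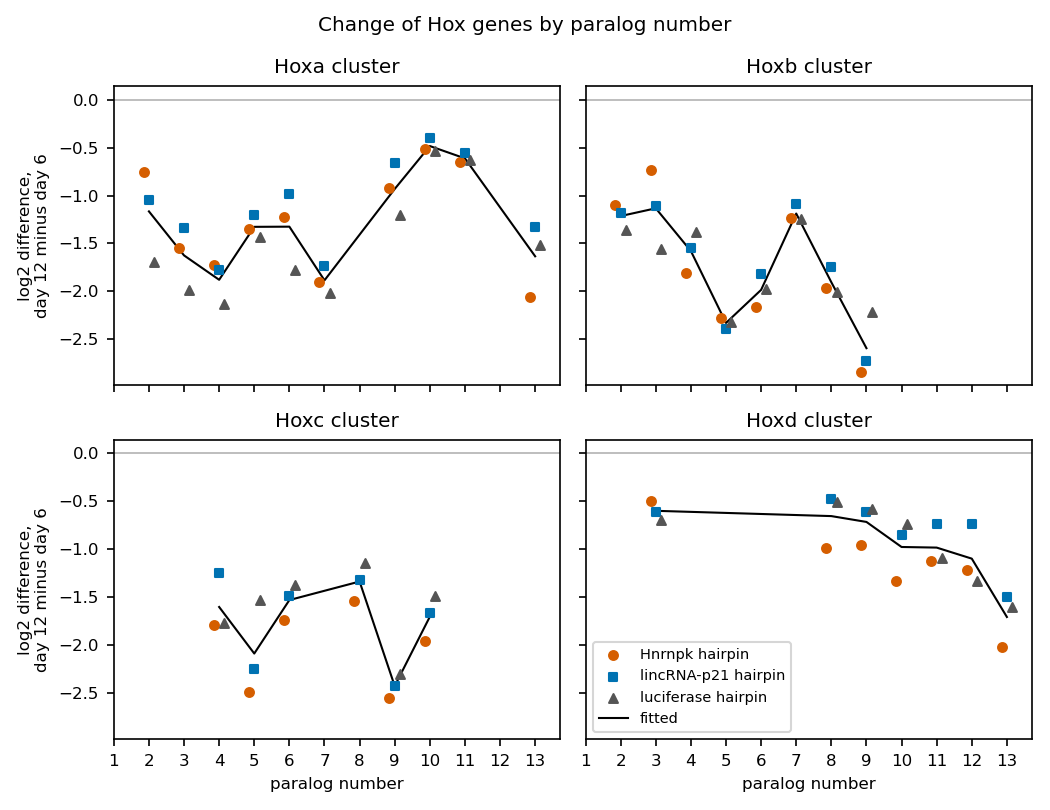
Difference of day 12 minus day 6 on the log2(signal + 10) scale against paralog number, 1 panel per cluster, for the genes also drawn by library. Points are the 3 hairpin arms and the line joins the fitted values. The HoxD line descends toward Hoxd13, while HoxA is least lowered at Hoxa10 and Hoxa11.

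Grouped by paralog number over all clusters, the 6 anterior genes (1 to 3) had a median of -1.15, the 14 middle genes (4 to 8) -1.59 and the 12 posterior genes (9 to 13) -1.04. On day 9 the posterior genes still stood at a median of 66.3% of day 6, the middle genes at 37.5% and the anterior genes at 50.3%. On day 12 the posterior median was 46.2%, the middle 32.0% and the anterior 44.3%. The posterior group was not uniform, for it held both Hoxb9 at 14.8% and Hoxa10 at 71.1%.

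Of the 8 T-box genes 7 were called lower on day 12 than on day 6, and Tbx2 was called higher. Tbx1, of the pharynx and inner ear, stood at 106.5, 12 and 13 on days 6, 9 and 12 in the Hnrnpk arm, 109, 29.5 and 5 in the lincRNA-p21 arm and 121, 20 and 18.5 in the luciferase arm (-2.51, SE 0.30, limma adjusted p = 0.000286). Its later values are near the added 10, so its fall is understated. Tbx5, which starts the forelimb, stood at 181, 37.5 and 22 in the Hnrnpk arm, 209, 85 and 29.5 in the lincRNA-p21 arm and 212.5, 62 and 47 in the luciferase arm (-2.34, SE 0.22). Tbx4, its hindlimb counterpart, stood at 386.5, 221 and 115 in the Hnrnpk arm, 416, 321.5 and 186 in the lincRNA-p21 arm and 478.5, 263 and 195.5 in the luciferase arm (-1.34, SE 0.15). In all 3 genes the day 12 and day 6 values did not overlap. Tbx3, a limb and mammary gene beside Tbx5, fell by 1.16, Tbx21, the T-helper regulator T-bet, by 1.22, Tbx15, of trunk dermis and skeleton, by 0.74, and Tbx18, of somites and ureter mesenchyme, by 0.53. The Tbx18 call was lost without the Hnrnpk library of day 12 (-0.43) or the lincRNA-p21 library of day 6 (-0.45) or day 12 (-0.47), with a limma adjusted p of up to 0.154 over its alternatives.

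Tbx2, a growth-promoting repressor that lies beside Tbx4, was the T-box gene called higher. It stood at 1824.5, 1797.5 and 1840 in the Hnrnpk arm, 1259, 1554.5 and 1787.5 in the lincRNA-p21 arm and 1528, 2171.5 and 2323 in the luciferase arm, a difference of 0.37 between days 12 and 6 (SE 0.13, limma adjusted p = 0.0402). The Hnrnpk arm was level over the days, at a difference of 0.01, and day 12 overlapped with day 6 across arms. The call was kept in 2 of 9 fits, those without the Hnrnpk library of day 6 or of day 12 (0.53 and 0.48), and the other 7 gave 0.25 to 0.37.

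The Pbx genes differed among themselves in direction. Pbx3 stood at 1468, 1149 and 1309 on days 6, 9 and 12 in the Hnrnpk arm, 2231.5, 1272 and 1233.5 in the lincRNA-p21 arm and 1665, 1219.5 and 1175 in the luciferase arm (-0.50, SE 0.13). Its call was lost without the lincRNA-p21 library of day 6 (-0.35) or of day 12 (-0.40). Pbx2 rose, with values of 948.5, 1454 and 1568 in the Hnrnpk arm, 910, 1161.5 and 1296.5 in the lincRNA-p21 arm and 1119, 1190 and 1187.5 in the luciferase arm (0.44, SE 0.13, limma adjusted p = 0.0219). Its day 12 values lay above every day 6 value, and the luciferase arm moved least, by 0.09. That call was lost without any of the Hnrnpk or lincRNA-p21 libraries of day 6 or day 12, where the difference was 0.30 to 0.42. Pbx4 stood at 118, 79 and 77 in the Hnrnpk arm, 122, 59 and 85 in the lincRNA-p21 arm and 103, 102.5 and 97 in the luciferase arm, below their day 6 values on day 12 in each arm, a difference of -0.37 that did not pass (SE 0.20, limma adjusted p = 0.147).

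All 3 Meis genes fell. Meis3 stood at 308, 128.5 and 136.5 on days 6, 9 and 12 in the Hnrnpk arm, 292, 164 and 140 in the lincRNA-p21 arm and 291, 151 and 139.5 in the luciferase arm (-1.05, SE 0.13). Meis2, a marker of the upper limb, stood at 1853, 1332 and 1220 in the Hnrnpk arm, 1923.5, 1478.5 and 1307 in the lincRNA-p21 arm and 2485.5, 1415 and 1489 in the luciferase arm (-0.63, SE 0.11). Meis1, which acts with Hoxa9 in blood stem cells, stood at 351, 229 and 287.5 in the Hnrnpk arm, 456, 231 and 245.5 in the lincRNA-p21 arm and 392, 244.5 and 242 in the luciferase arm (-0.61, SE 0.13). None of the 3 overlapped between days 12 and 6, a trait not counted over all genes.

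Six2, Six4 and Six5 fell, and so did both Msx genes. Six2, of kidney and face mesenchyme, stood at 48, 5 and 3 on days 6, 9 and 12 in the Hnrnpk arm, 75, 11 and 5.5 in the lincRNA-p21 arm and 61, 8 and 9.5 in the luciferase arm (-2.16, SE 0.25). Six4 stood at 285, 196 and 187 in the Hnrnpk arm, 314, 164 and 173.5 in the lincRNA-p21 arm and 387, 154 and 158.5 in the luciferase arm (-0.88, SE 0.16). For both the 3 day 12 values lay below the 3 day 6 values. Msx2 stood at 137, 27 and 60.5 in the Hnrnpk arm, 111, 40 and 23.5 in the lincRNA-p21 arm and 65.5, 17 and 14.5 in the luciferase arm (-1.51, SE 0.28). Msx1 stood at 139.5, 76.5 and 62.5 in the Hnrnpk arm, 196, 123 and 78 in the lincRNA-p21 arm and 135.5, 56 and 46.5 in the luciferase arm (-1.21, SE 0.16). Both Msx genes were lower on day 12 in every arm. In the Hnrnpk arm Msx2 was higher on day 12 than on day 9.

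The hairpin targets were read first. Hnrnpk stood at 11349, 17016 and 12793 on days 6, 9 and 12 in the Hnrnpk arm, 31142, 29972 and 27873 in the lincRNA-p21 arm and 31243, 26944 and 23376 in the luciferase arm, and was lower in its own arm than in the luciferase arm (-1.0, limma adjusted p = 0.00824). Trp53cor1, the gene of lincRNA-p21, stood at 131, 137 and 119.5 in the Hnrnpk arm, 90.5, 122 and 97 in the lincRNA-p21 arm and 286.5, 237 and 250 in the luciferase arm. All its lincRNA-p21 hairpin values lay below all its luciferase values, a difference of -1.25 that did not pass over all genes (SE 0.15, limma adjusted p = 0.0603), while the Hnrnpk hairpin gave -0.94 (limma adjusted p = 0.00752).

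Few members differed between the hairpins. The Hnrnpk hairpin set against luciferase gave 4 members lower and 0 higher, where 6.94% of all genes were lower and 5.58% higher, so the share of members lower was near that of all genes. At an unadjusted p under 0.05 there were 19 members, where 29.4% of all genes were. The 4 were Hoxd12, Tbx21, Six5 and Hoxd11, and the median over the members was -0.15 against 0.00 over all genes.

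Hoxd12, a digit and forearm gene, differed most. With the values given above, all 3 Hnrnpk libraries, at 83, 83.5 and 30, lay below the lowest luciferase library at 97. The difference was -1.27 (SE 0.19, limma adjusted p = 0.00609), and it was -1.54, -0.85 and -1.42 on days 6, 9 and 12. It kept its call with any 1 library left out and lost it without day 9 (-1.48). Tbx21 stood at 256, 192.5 and 86.5 on days 6, 9 and 12 in the Hnrnpk arm, 268.5, 195.5 and 131 in the lincRNA-p21 arm and 447, 280.5 and 187.5 in the luciferase arm. It was lower in the Hnrnpk arm than in the luciferase arm on each day (-0.78, SE 0.14, limma adjusted p = 0.0117). Six5, which lies beside the myotonic dystrophy kinase gene, stood at 441.5, 352.5 and 276.5 in the Hnrnpk arm, 567, 393 and 382 in the lincRNA-p21 arm and 806, 467.5 and 459 in the luciferase arm (-0.65, SE 0.12, limma adjusted p = 0.0107). Tbx21 and Six5 lost their calls without day 9 (-0.91 and -0.78) or without day 12 (-0.65 and -0.63). Hoxd11 was the weakest of the 4 (-0.46, SE 0.13, limma adjusted p = 0.0485). It kept its call in 1 of 9 fits with a library left out, that without the lincRNA-p21 library of day 6, and the others gave -0.37 to -0.55. It was also lost without day 9 (-0.54) or day 12 (-0.41).

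Of the 7 HoxD genes 6 were below 0 in this comparison, with a median of -0.36, and 6246 of the 12541 genes tested were below 0. Hoxd3 was at -0.34 (limma adjusted p = 0.0575) and Hoxd13 at -0.46 (limma adjusted p = 0.0596), neither past the threshold. The medians were -0.06 for HoxA, -0.15 for HoxB and 0.03 for HoxC. Hoxc10 at 0.52 (limma adjusted p = 0.0515) and Msx2 at 0.98 (limma adjusted p = 0.0539) were the members highest in the Hnrnpk arm, and neither passed.

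The lincRNA-p21 hairpin set against luciferase called 0 members in either direction by limma, and it called 0.00797% of all genes. At an unadjusted p under 0.05 there were 8 members, where 13.8% of all genes were, a share near that of the members. The median over the members was -0.03. Msx1 was at 0.72 (SE 0.16, limma adjusted p = 0.115) and Tbx21 at -0.57 (SE 0.14, limma adjusted p = 0.145). Between the knockdown arms, lincRNA-p21 against Hnrnpk, 1 member was higher, where 1.70% of all genes were, and 0 were lower, with 15 members and 19.0% of all genes at an unadjusted p under 0.05. The member called was Hoxd12 (1.10, SE 0.19, limma adjusted p = 0.024), whose call was kept in 2 of 9 fits, those without the luciferase library of day 6 or day 12. In the 7 others the difference was 0.95 to 1.29. All 7 HoxD genes were above 0 there, with a median of 0.44, and 6772 of the 12541 genes tested were above 0. These comparisons share arms, so their values are not independent.

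The differences between hairpins did not change over the days in a way the test called. The slope over days of the Hnrnpk difference passed in 0 members by limma, where 9.35% of all genes passed, and that of the lincRNA-p21 difference in 0 members and 0% of all genes. At an unadjusted p under 0.05 there were 6 members for the Hnrnpk slope, where 30.4% of all genes were, and 2 for the lincRNA-p21 slope, where 16.8% were. The slope model leaves 2 residual degrees of freedom.

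**Figure D3:**
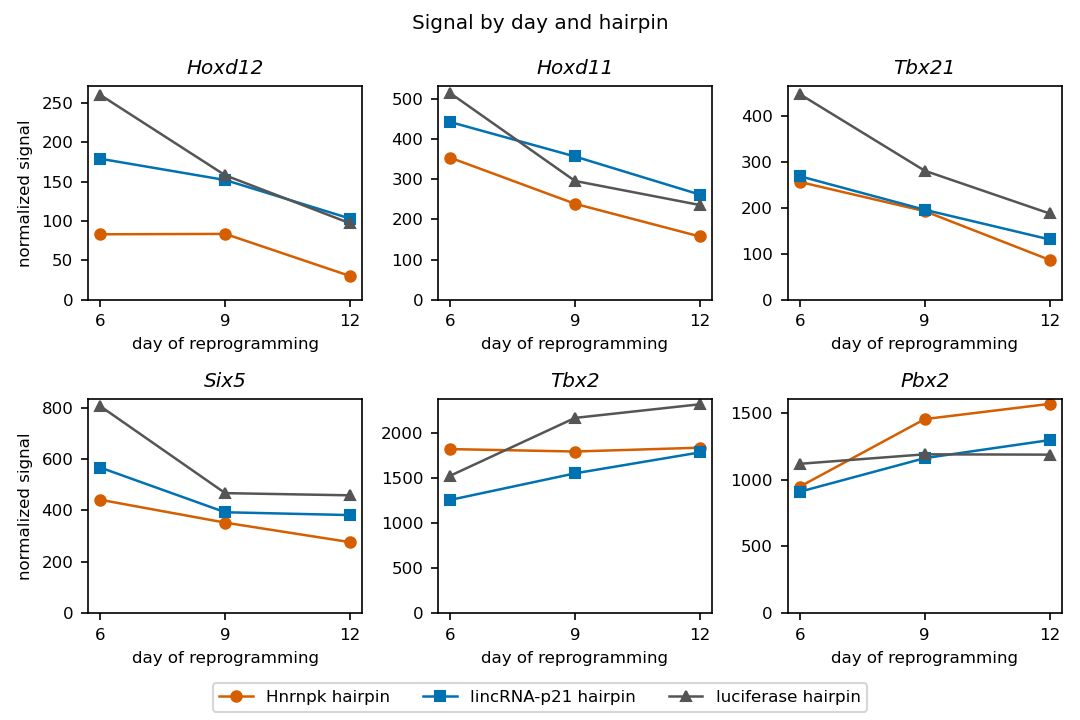
Normalized signal of 6 genes on days 6, 9 and 12, with 1 line per hairpin and 1 library per point. Hoxd12 is lowest with the Hnrnpk hairpin on every day, and Hoxd11, Tbx21 and Six5 likewise. Tbx2 and Pbx2 are higher on day 12 than on day 6 in each arm, though Tbx2 is almost level with the Hnrnpk hairpin.

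Other genes of position and of the Hox machinery were read from lists of known members. Of 41 further mesenchymal position genes in the table, 35 fell and 4 rose between days 12 and 6, with a median of -1.47. They included Lhx2, a limb outgrowth factor (-2.59), Osr1, of kidney and limb mesoderm (-2.51), and Emx2, of the urogenital tract and limb girdle (-2.27), while Barx2, a homeobox gene of epithelia and muscle, rose by 3.48. Of 25 Hox partners and regulators in chromatin, 7 rose and 9 fell, with a median of -0.14, shares near the 22.3% of all genes that were higher and the 27.0% that were lower. The Polycomb components Phc1 and Jarid2 rose, by 1.34 and 1.08, and Phc2 fell by 0.88. Gmnn, a replication licensing and Hox-binding protein, was called at 0.98, but its arms differed: it stood at 315.5, 1316.5 and 1244 on days 6, 9 and 12 in the Hnrnpk arm, 505, 1113.5 and 972 in the lincRNA-p21 arm and 596.5, 1025 and 622 in the luciferase arm, and the slope over days of its Hnrnpk difference was called (0.94, limma adjusted p = 0.018). Ezh1, a Polycomb methyltransferase, was lower in the Hnrnpk arm than in the luciferase arm (-0.59, limma adjusted p = 0.0108).

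Retinoic acid sets Hox expression in the embryo. Of 16 genes of its pathway 4 rose, a share near the 22.3% of all genes, and 2 fell, where 27.0% of all genes did, with Aldh1a3, which makes it, at 3.44, Cyp26a1, which degrades it, at 2.65, the receptor Rara at -0.57 and the retinol importer Stra6 at -0.94. Cyp26a1 had a signal of 20 or less in the luciferase arm, so the size of its rise depends on the added 10. Its arms differed on day 12, at 185.5 with the Hnrnpk hairpin, 66 with lincRNA-p21 and 20 with luciferase. The slope over days of its Hnrnpk difference was called (1.38, limma adjusted p = 0.0305). Stra6 was low in the luciferase arm too, at 9.5 to 34. Of 7 partners of Six2 and its relatives, 4 fell and 1 rose, where 27.0% of all genes fell and 22.3% rose. Sobp fell by 2.14, Eya1 by 1.49 and Dach1 by 0.85, and Eya2 rose by 1.55. On day 12 Sobp stood near the added 10, at 7.5 to 19. Eya2 (-1.21, limma adjusted p = 0.00575) and Dach1 (-0.55, limma adjusted p = 0.0206) were lower in the Hnrnpk arm than in the luciferase arm. They were 2 of the 7 partners, where 6.94% of all genes were lower, and 0 partners were called higher. The 2 listed non-coding RNAs of the clusters in the table fell, Hoxb3os by 1.46 and Hoxa11as by 0.73, and Hoxa11as was lower in the Hnrnpk arm (-0.45, limma adjusted p = 0.0341).

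Markers of cell state moved with the days. Of all genes tested, 27.0% fell and 22.3% rose between days 12 and 6. All 23 listed fibroblast genes were in the table, and 12 fell and 0 rose between days 12 and 6. Their median was -0.49, and that of the members -1.21. The summed signal of the fibroblast genes was 336116.5 to 409223.5 on day 12 and 394798 to 476234.5 on day 6, ranges that overlapped. Cdh2, Zeb2, Cdh11 and Snai2, genes of mesenchymal adhesion and transcription, fell, with differences of -2.14, -1.68, -1.68 and -1.43. All 14 epithelial genes in the table rose, with a summed signal of 24799 to 48200 on day 12 and 3444.5 to 6386 on day 6. Of 14 pluripotency genes 12 rose and 0 fell, with sums of 3135.5 to 13462 on day 12 and 1193.5 to 1481 on day 6, and 2 of them were at 0 in at least 1 library. In the Hnrnpk arm 7 epithelial genes were higher and 1 lower than in the luciferase arm, and 6 pluripotency genes were higher and 0 lower. Of all genes tested, 5.58% were higher and 6.94% lower in that comparison. Of 6 neural genes found, 5 fell between days 12 and 6 and 4 were higher in the Hnrnpk arm. Macrophage, endothelial and muscle lists had 1 of 8, 2 of 7 and 4 of 8 genes in the table. Of 7 keratinocyte genes 4 rose over the days and 5 were higher in the Hnrnpk arm. The part of these shifts in the members' values was not tested.

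**Figure D4:**
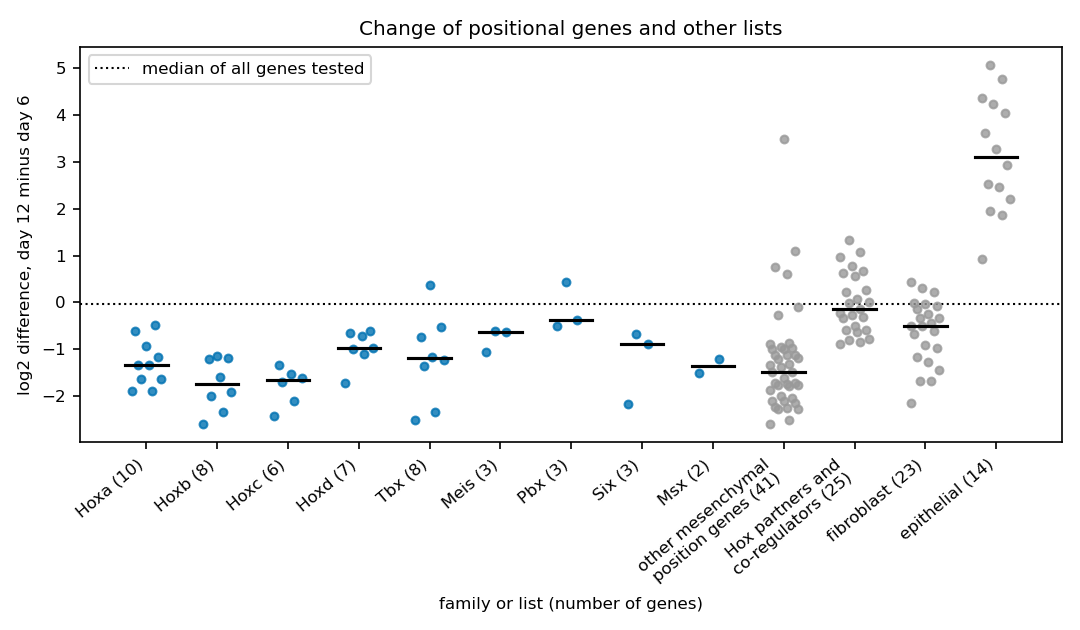
Difference of day 12 minus day 6 on the log2(signal + 10) scale for 50 of the 53 genes, by family (blue), and for 4 other lists (grey), with bars at the medians of the genes drawn and the dotted line at the median of all genes tested, -0.04. The families lie mostly below the line, as do the other mesenchymal position genes, and the epithelial genes lie above it.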

How the data were processed

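Total RNA, extracted with TRIzol, was sequenced by standard Illumina protocols, per the labels' protocols. Per the submitters' processing notes, RSEM 1.2.12, Bowtie 1.0.1 and mm10 were used, without the role of each. The deposited table holds the authors' normalized signal for 12550 genes in 9 libraries. The normalization, the number of merged replicates and the depth are not given in the sources used here. Judged by the deposited values, signal moves in steps of 0.5, column totals differ by 0.0252% and all columns share the highest value of 118715, so shifts common to all genes cannot be seen.

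From the deposited signal, log2(signal + 10) was fitted with limma 3.58.1 in R 4.3.3 for the 12541 genes with a mean of at least 20 (9 below), with terms for hairpin and day (4 residual degrees of freedom), an intensity trend and Benjamini-Hochberg adjustment over all genes tested. Libraries were grouped by the hairpin and day in the labels. Coordinates came from GENCODE M21, which holds all 53 members, and promoters from RefSeq. Figures were drawn with matplotlib 3.10.9. The members and gene lists were chosen with earlier results of these data known. Values per library are given for up to 3 members of each family with the largest difference between days 12 and 6, for members called between hairpins, and for members that moved against their family, and up to 4 called genes from each other list. Pbx4 was added because it was not called. Single results of 3 members are not reported here, though counts and medians over the members include them. Alternatives were another added constant (1 or 50), no filter on low values, centring each library on its median, no intensity trend, and leaving out each library, arm or day.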

Additional observations from a re-analysis of the deposited data

How the results depend on the processing

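For 30 results of single named members, 510 alternatives were run. In 466 the call and direction were unchanged, in 44 the call was lost, and in 0 the direction turned. The calls of 21 results held under every alternative run. Those lost at least once were Tbx2, Pbx2, Pbx3 and Meis1 over the days and Hoxd12, Hoxd11, Tbx21 and Six5 between hairpins, Hoxd12 in each of 2 comparisons. Meis1 was lost without the lincRNA-p21 arm (-0.48).

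With a library, arm or day left out, the members called between days 12 and 6 ranged from 46 to 51 lower and 0 to 1 higher, and without the intensity trend 1 was higher. Between days 9 and 6 they ranged from 33 to 46 lower and 0 to 1 higher, and between days 12 and 9 from 0 to 6 lower. The Hnrnpk hairpin against luciferase gave 0 to 5 lower (0 without day 9, 1 without day 12) and 0 to 1 higher, and 2 higher without the trend. The lincRNA-p21 hairpin against Hnrnpk gave 0 to 3 higher and 0 to 1 lower. The slope of the Hnrnpk difference gave 0 to 2 higher and 0 to 1 lower. The share of all genes called moves between fits too. Between days 12 and 9 it was 0.654% with all libraries and 3.36% without the luciferase library of day 6. For most of these fits that share is not given, so the ranges are not set against all genes.

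With 50 added, medians were -0.79 (days 9 and 6) and -0.99 (days 12 and 6) over the members, -1.02 for HoxA, -1.50 for HoxB, -1.42 for HoxC, -0.75 for HoxD, and -0.12 for Hnrnpk against luciferase, as a larger constant shrinks every difference. Leaving out libraries, arms or days moved the median between days 12 and 9 from -0.28 to -0.17 and that of Hnrnpk against luciferase from -0.22 to -0.10. The cause of the other shifts was not tested. The terms for hairpin and day take each day difference within a hairpin and each hairpin difference within a day, and with 1 library per hairpin and day there is no replicate number to add. Merged replicates leave the spread between cultures unmeasured, and the unknown depth leaves low values, such as those of Six2 and Tbx1 on day 12, without a counting error.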
